A study of Mus musculus with 3 samples.

Results

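The mRNA levels of 10 mouse genes that are transcribed when the kinase ERK is active were read in 3 kinds of cultured heart cell. They are the phosphatases Dusp4, Dusp5 and Dusp6, the Sprouty proteins Spry2 and Spry4, the Ets factors Etv4 and Etv5, the immediate early factors Egr1 and Fosl1, and Phlda1. These 10 were picked by symbol from the 18245 genes of the deposited table, and all of them passed the filter on low counts in every comparison. The choice was made with earlier results of these data known, so contrasts of the 10 with all genes are descriptions only. The mice were C57BL/6, and the labels name no engineered allele. The labels give the ventricle epicardium, the outer surface of the heart, as the tissue of all 3 kinds, while the study's methods describe a digest of the dissected heart for pEpiC. CDC are cardiosphere-derived cells, which grew out of epicardial explants of young adult hearts and have a mesenchymal shape. CDC-EpiC is 1 clone of epithelial shape. It was isolated in a cloning cylinder after CDC had been cultured for 2 weeks with 10 µM SB-431542, which blocks the kinase of TGF-beta type I receptors. Whether the inhibitor was still present when RNA was taken is not given in the sources used here. pEpiC are primary epicardial cells freed from young adult hearts by enzymatic digestion and then cultured, without inhibitor. The study's methods give passage 3 for both CDC and pEpiC. CDC were kept in a medium with more serum than pEpiC, which were plated on gelatin, so medium, plating and kind of cell cannot be told apart. Each kind has 3 libraries (n = 3). The sources do not say whether these are separate animals or cultures, and the CDC-EpiC libraries are of a single clone, so p-values measure only the spread between these libraries, which may be technical.

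As background, growth factor receptors such as those for FGF, EGF and PDGF pass their signal through Ras, Raf and MEK to ERK, which enters the nucleus and switches on genes within minutes. A first set, the immediate early genes, encodes transcription factors such as Egr1 and Fosl1. Another set acts back on the pathway: the Dusp phosphatases remove the activating phosphates from ERK, and Sprouty proteins act between the receptor and Raf. Etv4 and Etv5 belong to the PEA3 group of Ets factors and are widely used as readouts of FGF signalling. In the developing heart, FGF signals and the epicardium act together in the growth of the ventricle wall.

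Total expected counts ranged from 22008833 to 22756045 per library. Levels are given as CPM (counts scaled to library size after TMM normalisation) and, where genes are compared with each other, as TPM, which also corrects for transcript length. Pairs of libraries of a kind differed by more than read sampling alone gives (chi-square over its degrees of freedom 4.72 to 21.8), and each was counted as 1 sample. Transcript length moved with the comparisons of pEpiC: for each doubling of effective length the log2 change was 0.441 larger in pEpiC vs CDC and differed by -0.436 in CDC-EpiC vs pEpiC, against 0.00624 in CDC-EpiC vs CDC. Values from a fit with a length offset and from TPM are therefore given where they end a call or turn a direction. In TPM the median of all genes itself shifted by 0.41 in pEpiC vs CDC and by -0.33 in CDC-EpiC vs pEpiC, and 74.5% and 32.9% of the calls were higher in the first kind, against 50.8% and 49.3% in counts.

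Markers of other cells differed between the kinds. The summed level of 10 macrophage genes was 72.5 to 74.3 CPM in CDC, 29.99 to 32.9 CPM in CDC-EpiC and 299 to 832 CPM in pEpiC, where library 1 stood apart at 832 CPM against 327 and 299 CPM. Of the defining markers, Ptprc and Fcgr1 were at 0 counts in CDC-EpiC, and Fcgr1 was at 0 counts in CDC. Most of the CDC sum was Lyz2, at 37.7 CPM, Csf1r, at 19.6 CPM, and Cd14, at 13.9 CPM. Ptprc, Adgre1, C1qa, C1qb and C1qc averaged at most 0.198 CPM in CDC and in CDC-EpiC. Cd68 was higher in the clone, at 13.3 CPM against 1.96 CPM in CDC. The 10 cardiomyocyte genes summed to 10.0 to 30.2, 10.3 to 12.9 and 138 to 155 CPM in CDC, CDC-EpiC and pEpiC, but Tnnt2 alone averaged 145 CPM in pEpiC. Myh6, Myl2, Myl3 and Actc1 were highest in CDC, Myh6 at 5.81 ± 5.03 CPM (SD, n = 3; 0 in the lowest library) against 0.0144 ± 0.0250 CPM in pEpiC, and Myl3 was at 0 counts in CDC-EpiC. The 9 endothelial genes summed to 7.19 to 8.07, 8.37 to 9.86 and 23.6 to 25.7 CPM, of which Tek alone averaged 17.6 CPM in pEpiC, while Egfl7 averaged 5.85, 7.38 and 2.05 CPM. Pecam1, Cdh5, Tie1, Emcn and Cldn5 averaged at most 0.437 CPM in any kind, and the last 4 were at 0 counts in CDC-EpiC. The 10 epicardial and mesothelial genes summed to 527 to 547, 4722 to 5510 and 513 to 537 CPM, and most of the clone's sum was Upk3b, at 2655 CPM, and Lrrn4, at 2122 CPM. Single genes of this list went different ways: Wt1 averaged 10.0, 119 and 51.1 CPM, Tbx18 92.7, 56.4 and 49.2 CPM, Tcf21 12.3, 27.9 and 102 CPM, and the keratin Krt19 35.4, 25.4 and 1.22 CPM, while Krt8 and Krt18 averaged at most 2.76 CPM. The 10 mesenchymal genes summed to 16128 to 19310, 9387 to 10931 and 33817 to 36627 CPM, with the 3 collagen genes highest in pEpiC and Vim, Thy1 and Acta2 highest in CDC. In CDC-EpiC vs CDC 6 of the 10 passed lower and 2 higher in edgeR, against 34.6% and 34.2% of all genes. The 2 higher genes were Dcn, with means of 462, 1839 and 1703 CPM, and Pdgfra, with 29.0, 60.9 and 352 CPM. The 7 heat shock and dissociation genes summed to 4083 to 4187, 4311 to 4564 and 2925 to 3031 CPM, most of it Hspa8. In CDC-EpiC vs CDC 5 of the 7 passed the test lower and 1 higher, against the same 34.6% and 34.2% of all genes. The part of these cells in the values of the 10 genes was not tested. In bulk RNA, fewer cells of a type and less RNA per cell cannot be told apart.

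How the clone that arose under the inhibitor differs from its parent cells was read from CDC-EpiC vs CDC. Dusp5, Spry2, Spry4 and Dusp6 were 2.23- to 3.31-fold higher in the clone, and Egr1 and Etv5 were 1.26- and 1.2-fold higher. Fosl1 was 6.12-fold lower, Phlda1 1.76-fold, Dusp4 1.4-fold and Etv4 1.31-fold lower. Thus all 10 genes passed an adjusted p of 0.05 in edgeR, against 68.8% of the 12976 genes tested, 6 of them higher (34.2% of all genes) and 4 lower (34.6%). The libraries of the 2 kinds did not overlap for 8 of the 10 genes, against 72.1% of all genes. The median size of the log2 change was 0.99 for the 10 genes and 0.44 for all genes tested.

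How explant-derived cells stand to primary epicardial cells in culture was read from pEpiC vs CDC. Spry2 was 2.29-fold and Etv5 1.21-fold higher in pEpiC. The other 8 genes were lower, from 17.0-fold for Fosl1, 3.74-fold for Phlda1, 3.02-fold for Dusp5 and 2.38-fold for Etv4 down to 1.19-fold for Spry4. All 10 passed, against 78.3% of the 13526 genes tested, with 2 higher (39.8% of all genes) and 8 lower (38.5%), or 2 higher and 5 lower in TPM with limma. The libraries did not overlap for 9 of the 10 genes, against 81.5% of all genes, and Spry4 was the exception. The median log2 change was -0.69 for the 10 genes and 0.02 for all genes tested. Without pEpiC library 1, which held the most macrophage RNA, 8 of the 10 passed, and Spry4 and Etv5 no longer did. The calls of Spry4 and Etv5 were also lost without CDC library 1 (edgeR, adjusted p = 0.0634 and 0.0587).

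The clone and the primary epicardial cells were set side by side in CDC-EpiC vs pEpiC. Dusp5 was 9.69-fold higher in the clone, and Spry4, Dusp6, Fosl1 and Phlda1 were 3.25-, 3.20-, 2.71- and 2.06-fold higher. Egr1, Etv4, Spry2 and Dusp4 were 1.85-, 1.77-, 1.21- and 1.19-fold higher. Of the 10 genes 9 passed, against 81.9% of the 13547 genes tested, all 9 of them higher (40.3% of all genes) and 0 lower (41.5%). Etv5 was the gene that did not pass. The count of 0 lower was the same in DESeq2 and at an unadjusted p under 0.05, while in TPM with limma 7 were higher and 1, Etv5, was lower. Its change in TPM differed by only -0.07 from the median of all genes on that scale. The libraries did not overlap for 9 of the 10 genes, against 84% of all genes. The median log2 change was 0.97 for the 10 genes and -0.02 for all genes tested. The 3 comparisons share libraries with each other, so their counts are not independent. Without pEpiC library 1, 9 of the 10 genes passed as well.

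**Figure D1:**
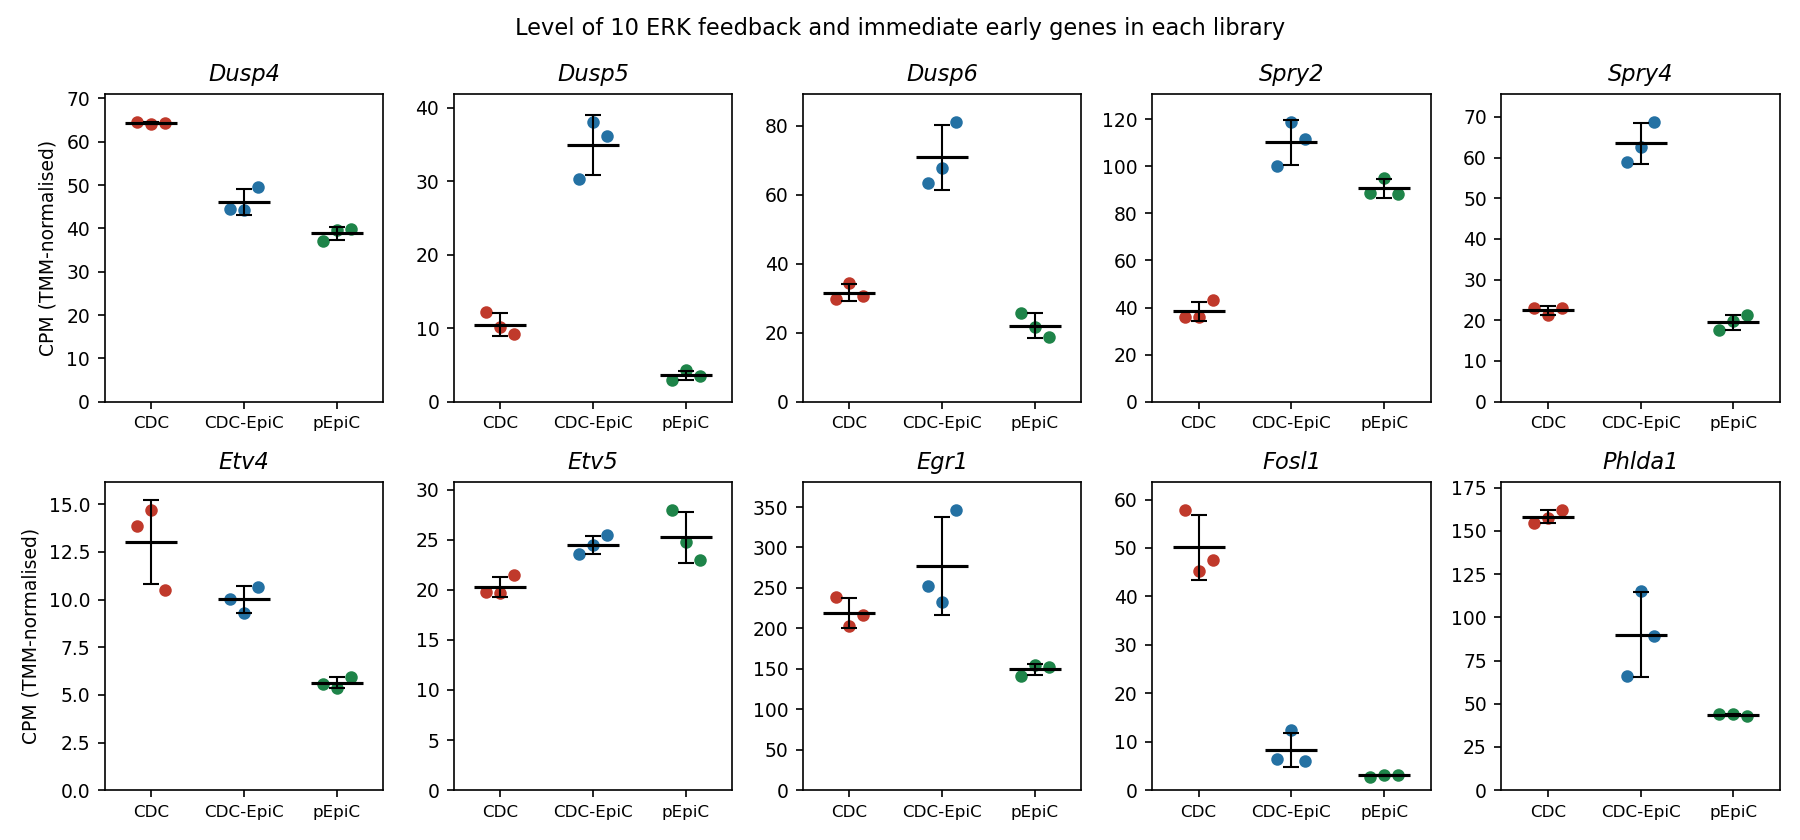
Level of the 10 genes in CPM (y axes, linear from 0) in the 3 libraries of CDC (red), CDC-EpiC (blue) and pEpiC (green), with the mean (long bar) and SD (short bars). Dusp5, Dusp6, Spry2 and Spry4 peak in CDC-EpiC, while Dusp4, Fosl1, Phlda1 and Etv4 fall from CDC through CDC-EpiC to pEpiC.

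Dusp5 (NCBI Gene 240672) encodes a nuclear phosphatase of ERK. It lies on chromosome 19 from 53529109 to 53542431 on the plus strand in GENCODE M21 on GRCm38, the build of all gene positions given here. Its level was 12.2, 10.2 and 9.15 CPM in the CDC libraries, 30.3, 38.1 and 36.2 CPM in CDC-EpiC and 2.99, 4.27 and 3.50 CPM in pEpiC. The 3 ranges were apart, with the clone on top and pEpiC lowest, and of the 10 genes Dusp5 had the widest gap between the clone and pEpiC. In edgeR the log2 change was 1.73 ± 0.11 (SE) in CDC-EpiC vs CDC (adjusted p = 3.25e-09), -1.59 ± 0.16 in pEpiC vs CDC (adjusted p = 7.5e-06) and 3.28 ± 0.13 in CDC-EpiC vs pEpiC (adjusted p = 8.61e-09). With the length offset the last 2 were -0.94 and 2.69. In pEpiC the gene rested on 69 to 98 counts per library. An antisense gene of 547 shared bases, AC137853.2, overlaps its start, and its reads cannot be told apart from those of Dusp5 where strand was not used.

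The start of Dusp5 is shown with that of Dusp6, because both phosphatase genes peaked in the clone. The sequences are of RefSeq, build GRCm38.p6, plus strand, and end before the first base of the gene in GENCODE. Capitals mark the letters of motifs searched on both strands: the CArG box bound by serum response factor, the letters TGANTCA bound by pairs of Fos and Jun proteins, TGACGTCA bound by CREB, the shorter TGACG that lies within it, GCGNGGGCG bound by Egr proteins, and CCGGAA bound by Ets proteins. The Dusp5 stretch, at chr19:53528895-53529108, is:
Dusp5: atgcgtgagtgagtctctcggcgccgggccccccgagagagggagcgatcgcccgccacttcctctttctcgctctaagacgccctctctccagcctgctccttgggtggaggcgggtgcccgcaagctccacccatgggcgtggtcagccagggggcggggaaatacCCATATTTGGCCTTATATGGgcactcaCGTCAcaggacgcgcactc
The Dusp6 stretch, at chr10:99262981-99263230, is:
Dusp6: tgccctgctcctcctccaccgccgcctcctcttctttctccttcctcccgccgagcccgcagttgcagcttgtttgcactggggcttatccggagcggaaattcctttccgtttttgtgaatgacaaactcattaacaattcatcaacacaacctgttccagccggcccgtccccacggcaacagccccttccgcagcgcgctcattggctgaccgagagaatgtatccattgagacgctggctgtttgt
The Dusp5 stretch held 2 CArG boxes side by side, from -82 to -73 and from -72 to -63 counted from the RefSeq start, and 1 TGACG on the minus strand from -55 to -51. Among the 32851 mouse windows of 250 bases before a RefSeq start, 1.47% held a CArG box and 17.8% held TGACG. The Fos and Jun letters were in 6.75% of the windows, the full CREB letters in 1.55%, the Egr letters in 4.7% and the Ets letters in 12%. Windows were scanned for 4 of the 10 genes (Dusp5, Dusp6, Spry2 and Etv5, the last with 2 starts). Spry4 and Egr1 were left out before genes were matched to windows, so 4 is not a result of matching all 10. None of these letters was found in the windows of Dusp6, Spry2 and Etv5. A match is a string of letters, and no binding was measured.

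Dusp6 (NCBI Gene 67603, chromosome 10 from 99263231 to 99267489, plus strand) encodes the cytoplasmic ERK phosphatase that is often used as a marker of FGF signalling. Its level was 29.7, 34.6 and 30.7 CPM in CDC, 63.5, 67.8 and 81.3 CPM in CDC-EpiC and 25.8, 21.6 and 18.8 CPM in pEpiC. The clone was high in each of its libraries, and the range of CDC lay just above that of pEpiC. The log2 change in edgeR was 1.16 ± 0.10 in CDC-EpiC vs CDC (adjusted p = 5.4e-08), 1.68 ± 0.12 in CDC-EpiC vs pEpiC (adjusted p = 5.08e-07) and -0.57 ± 0.11 in pEpiC vs CDC (adjusted p = 0.000989). The last call was lost in TPM with limma, where the change was -0.07 (adjusted p = 0.578), a difference of -0.48 from the median of all genes on that scale. Over the 17 alternatives its adjusted p ranged from 3.35e-05 to 0.578.

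Dusp4 (NCBI Gene 319520, chromosome 8 from 34807297 to 34819894, plus strand) encodes a nuclear phosphatase of ERK and JNK. Unlike Dusp5 and Dusp6 it was highest in CDC, at 64.7, 64.1 and 64.2 CPM, with 44.5, 44.3 and 49.5 CPM in CDC-EpiC and 37.0, 39.6 and 39.8 CPM in pEpiC. The 3 ranges did not overlap, and the CDC libraries lay closer together than those of any of the other 9 genes in that kind. In edgeR Dusp4 fell by 0.49 ± 0.07 in CDC-EpiC vs CDC (adjusted p = 3.02e-05) and by 0.77 ± 0.06 in pEpiC vs CDC (adjusted p = 6.95e-07) on the log2 scale. On that scale it rose by 0.25 ± 0.06 in CDC-EpiC vs pEpiC (edgeR, adjusted p = 0.00357). In TPM the direction of the last turned to -0.13 (limma, adjusted p = 0.12), a difference of 0.19 from the median of all genes, and its adjusted p ranged from 0.00254 to 0.12 over the 17 alternatives.

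Per transcript length, the 5 ERK-directed phosphatases (these 3 with Dusp7 and Dusp9) summed to 104.5 ± 1.2 TPM in CDC, 165 ± 17.3 TPM in CDC-EpiC and 101 ± 3.59 TPM in pEpiC. In CDC the leading phosphatase was Dusp4, with 44.7% ± 1.36 of the family's TPM (SD, n = 3). In CDC-EpiC it was Dusp5, with 34.4% ± 2.24, followed by Dusp6 with 28.3% ± 1.73 and Dusp4 with 21.4% ± 1.35. In pEpiC Dusp4 and Dusp7, a further cytoplasmic ERK phosphatase, led with 38.5% ± 2.43 and 34.8% ± 0.884, while Dusp5 held 7.60% ± 1.33. The library ranges of the Dusp4 share in CDC (43.3% to 46.0%) and of the Dusp5 share in CDC-EpiC (33.1% to 37.0%) were each above those of the same gene in the other kinds. The ratio of Dusp4 to Dusp6 in TPM was 2.36 ± 0.192 in CDC, 0.756 ± 0.0530 in CDC-EpiC and 2.07 ± 0.399 in pEpiC. These shares are descriptions without a test. Sums in TPM, here and for the families below, are not set against the shift of all genes. That shift had a median of 0.41 on the log2 scale in pEpiC vs CDC.

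Spry2 (NCBI Gene 24064, chromosome 14 from 105891947 to 105896819, minus strand) encodes an inhibitor of receptor signalling to Ras. It was low in CDC, at 36.0, 36.2 and 43.1 CPM, and high in both CDC-EpiC, at 100.1, 119 and 112 CPM, and pEpiC, at 88.6, 95.2 and 88.1 CPM. The CDC range lay far below the others, and the clone lay just above pEpiC. In edgeR the log2 change was 1.51 ± 0.09 in CDC-EpiC vs CDC (adjusted p = 1.16e-09), 1.19 ± 0.08 in pEpiC vs CDC (adjusted p = 2.78e-07) and 0.28 ± 0.07 in CDC-EpiC vs pEpiC (adjusted p = 0.00257). The first 2 kept their direction and call in every alternative. The last was 0.10 with the length offset (adjusted p = 0.188) and turned to -0.11 in TPM (limma, adjusted p = 0.181), a difference of 0.22 from the median of all genes, and its adjusted p ranged from 0.0004 to 0.188 over the alternatives.

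Spry4 (NCBI Gene 24066, chromosome 18 from 38586247 to 38601415, minus strand), a second Sprouty inhibitor, stood highest in the clone, with 59, 62.6 and 68.8 CPM, against 23.1, 21.2 and 23.0 CPM in CDC and 17.5, 19.7 and 21.3 CPM in pEpiC. The ranges of CDC and pEpiC overlapped, and that of the clone was apart from both. The log2 change in edgeR was 1.49 ± 0.08 in CDC-EpiC vs CDC (adjusted p = 3.66e-10) and 1.70 ± 0.08 in CDC-EpiC vs pEpiC (adjusted p = 2.77e-08). The edgeR change in pEpiC vs CDC was -0.25 ± 0.08 (adjusted p = 0.0207). This call was lost in DESeq2 (adjusted p = 0.0653), with library size alone (adjusted p = 0.156), in FPKM (adjusted p = 0.211) and without CDC library 1 (adjusted p = 0.0634) or pEpiC library 1 (adjusted p = 0.0774). In TPM with limma the change turned to 0.23 (adjusted p = 0.0612), a difference of -0.19 from the median of all genes on that scale. The length offset gave -0.54 (edgeR, adjusted p = 0.000125). Over the alternatives its adjusted p ranged from 0.000125 to 0.211.

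Their relative Spry1, which is not among the 10, moved in the opposite direction to Spry2 and Spry4 in the clone. Spry1 had 67.3, 69.7 and 71.9 CPM in CDC, 27.9, 34.9 and 35.0 CPM in CDC-EpiC and 154, 160.5 and 149.6 CPM in pEpiC. It fell by 1.1 ± 0.09 in CDC-EpiC vs CDC on the log2 scale (edgeR, adjusted p = 3.51e-08) and by 2.25 ± 0.08 in CDC-EpiC vs pEpiC (adjusted p = 3.81e-09). Per length, the 4 Sprouty genes summed to 94.9 ± 9.0 TPM in CDC, 149.8 ± 13.4 TPM in CDC-EpiC and 275 ± 13.8 TPM in pEpiC. Spry1 held 55.9% ± 1.51 of this sum in CDC and 58.2% ± 0.685 in pEpiC, but 17.4% ± 0.768 in the clone. Spry2 held 33.6% ± 1.69, 64.3% ± 1.39 and 37.7% ± 0.399 in CDC, CDC-EpiC and pEpiC, and Spry4 held 9.04% ± 0.549, 17.0% ± 1.1 and 3.71% ± 0.404. The ratio of Spry2 to Spry4 in TPM was near equal in CDC and CDC-EpiC, at 3.73 ± 0.344 and 3.79 ± 0.330, and 10.3 ± 1.05 in pEpiC.

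Etv4 (NCBI Gene 18612, chromosome 11 from 101769742 to 101785371, minus strand) and Etv5 (NCBI Gene 104156, chromosome 16 from 22381309 to 22439719, minus strand) moved in different ways. Etv4 had 13.8, 14.7 and 10.5 CPM in CDC, 10.0, 9.31 and 10.7 CPM in CDC-EpiC and 5.59, 5.36 and 5.95 CPM in pEpiC. It was lowest in pEpiC, while CDC library 3 lay within the range of the clone. In edgeR it fell by 1.25 ± 0.14 in pEpiC vs CDC on the log2 scale (adjusted p = 1.61e-05), and it was 0.83 ± 0.11 higher in CDC-EpiC vs pEpiC (adjusted p = 4.81e-05). The log2 change in CDC-EpiC vs CDC was -0.38 ± 0.13 (adjusted p = 0.0136), a call that was lost in TPM (limma, adjusted p = 0.0594), in FPKM (adjusted p = 0.0593) and without CDC library 1 (adjusted p = 0.058) or 2 (adjusted p = 0.0721). The lowest adjusted p of that change among the alternatives was 0.000717.

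The levels of Etv5 lay close together in the 3 kinds. It had 19.8, 19.6 and 21.5 CPM in CDC, 23.6, 24.4 and 25.4 CPM in CDC-EpiC and 28, 24.8 and 23.0 CPM in pEpiC. CDC was lowest, and the ranges of the clone and of pEpiC overlapped. The log2 change in edgeR was 0.26 ± 0.08 in CDC-EpiC vs CDC (adjusted p = 0.00973), a call lost without CDC-EpiC library 3 (adjusted p = 0.0505). It was 0.27 ± 0.09 in pEpiC vs CDC (adjusted p = 0.0146), a call lost with the length offset, at 0.09 (adjusted p = 0.341), and without CDC library 1 (adjusted p = 0.0587) or pEpiC library 1 (adjusted p = 0.0604). CDC-EpiC vs pEpiC gave -0.05 ± 0.08 (adjusted p = 0.595), 0.15 with the length offset (adjusted p = 0.121), 0.03 without pEpiC library 1 (adjusted p = 0.719) and -0.39 in TPM (limma, adjusted p = 0.002). The TPM value differed by -0.07 from the median of all genes on that scale. Over the alternatives the adjusted p of the 3 changes ranged from 0.00316 to 0.0505, from 8.67e-05 to 0.341 and from 0.00188 to 0.855.

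Within the PEA3 group the balance of Etv5 to Etv4 differed between the kinds. The ratio of Etv5 to Etv4 in TPM was 0.957 ± 0.230 in CDC, 1.47 ± 0.0969 in CDC-EpiC and 2.70 ± 0.338 in pEpiC, and its library ranges of 0.795 to 1.22, 1.4 to 1.58 and 2.33 to 2.99 did not overlap. Etv1, the third member of the group, held 2.03% ± 0.489 of the family's TPM in CDC, 3.31% ± 0.0607 in CDC-EpiC and 17.4% ± 0.379 in pEpiC. It was 3.08 ± 0.18 higher in pEpiC vs CDC on the log2 scale (edgeR, adjusted p = 1.73e-07), at a mean of 0.85 CPM in CDC against 7.45 CPM in pEpiC. The 3 genes together summed to 19.6 ± 0.461, 20.5 ± 1.44 and 26.3 ± 1.69 TPM, not set against the shift of all genes in TPM.

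**Figure D2:**
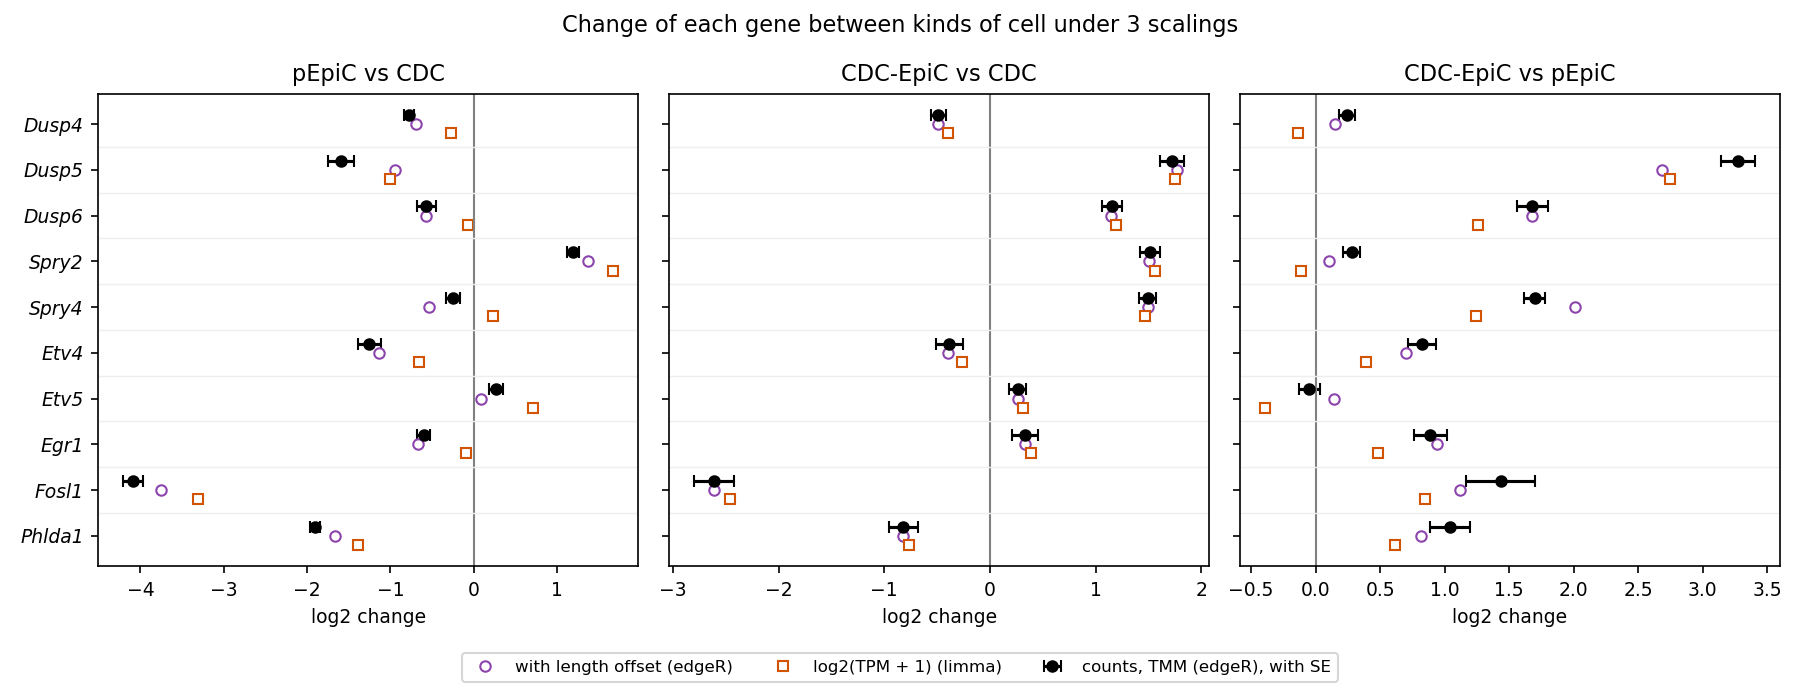
Log2 change of each gene (x axes) in the 3 comparisons, from counts with TMM in edgeR (black, bars are SE), with a length offset (open circles) and from TPM in limma (open squares). The 3 scalings lie close together in CDC-EpiC vs CDC, while TPM shifts the comparisons with pEpiC and takes Spry4, Dusp4 and Spry2 across 0. The median of all genes in TPM shifts as well, by 0.41 in pEpiC vs CDC and -0.33 in CDC-EpiC vs pEpiC.

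Egr1 (NCBI Gene 13653, chromosome 18 from 34859823 to 34864984, plus strand) encodes a zinc finger factor that is induced within minutes by serum and growth factors. Its level was 239, 202 and 217 CPM in CDC, 252, 233 and 346 CPM in CDC-EpiC and 141, 154 and 152 CPM in pEpiC. pEpiC was lowest throughout, and CDC and the clone overlapped, with CDC-EpiC library 3 far above the rest. In edgeR the log2 change was -0.60 ± 0.07 in pEpiC vs CDC (adjusted p = 2.83e-05) and 0.89 ± 0.13 in CDC-EpiC vs pEpiC (adjusted p = 8.95e-05). The first of these was lost in TPM, at -0.10 (limma, adjusted p = 0.288), a difference of -0.51 from the median of all genes on that scale. In CDC-EpiC vs CDC it was 0.33 ± 0.12 (adjusted p = 0.0253), but 0.13 without CDC-EpiC library 3 (adjusted p = 0.292), and the call was also lost without CDC library 2 (adjusted p = 0.0753) or 3 (adjusted p = 0.0522). The lowest adjusted p among its alternatives was 0.00785. Per length, Egr1 held 93.6% to 96.5% of the TPM of the 4 Egr genes in each kind on average.

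Fosl1 (NCBI Gene 14283, chromosome 19 from 5447547 to 5455946, plus strand) encodes a Fos family partner of Jun proteins whose mRNA depends on sustained ERK activity in many cells. Of the 10 genes it had the largest change between CDC and either other kind. It had 57.8, 45.3 and 47.4 CPM in CDC, 6.41, 12.3 and 5.98 CPM in CDC-EpiC and 2.82, 3.14 and 3.15 CPM in pEpiC. The 3 ranges were apart, and CDC-EpiC library 2 lay well above the other 2 clone libraries. In edgeR the log2 change was -4.09 ± 0.12 in pEpiC vs CDC (adjusted p = 1.75e-09), -2.61 ± 0.19 in CDC-EpiC vs CDC (adjusted p = 9.56e-09) and 1.44 ± 0.27 in CDC-EpiC vs pEpiC (adjusted p = 0.00063). All 3 held in every alternative, with -3.31 in TPM for the first. In pEpiC the gene rested on 64.8 to 72.4 expected counts per library. The protein-coding gene Ccdc85b overlaps it on the opposite strand over 2767 bases, and averaged 74.9, 68.4 and 17.9 CPM in CDC, CDC-EpiC and pEpiC. How reads were split between the 2 genes is not given in the sources used here.

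The other Fos genes had smaller falls or a rise. Fosl2 had 296, 268 and 312 CPM in CDC, 219.7, 262 and 246 CPM in CDC-EpiC and 226, 251 and 249.9 CPM in pEpiC, a log2 change of -0.27 ± 0.09 in CDC-EpiC vs CDC (edgeR, adjusted p = 0.0119) and -0.31 ± 0.07 in pEpiC vs CDC (adjusted p = 0.00246), and in TPM these were -0.19 (limma, adjusted p = 0.0864) and 0.19 (adjusted p = 0.0747). Fos, the founding immediate early gene, rose by 1.18 ± 0.12 in CDC-EpiC vs CDC (adjusted p = 5.94e-07), from 9.82, 8.35 and 10.5 CPM to 19.0, 20.4 and 25.7 CPM. The summed TPM of the 4 Fos genes was 148 ± 15.1 in CDC, 105 ± 10.3 in CDC-EpiC and 115 ± 7.19 in pEpiC. Fosl1 held 35.2% ± 2.89 of it in CDC, 8.51% ± 2.96 in CDC-EpiC and 3.78% ± 0.0521 in pEpiC, and Fosl2 held 58.8% ± 2.57, 72.7% ± 1.13 and 86.3% ± 0.645. The Fos share was 5.44% ± 0.332, 18.5% ± 2.79 and 8.89% ± 0.492. Thus Fosl1 and Fos stood in opposite order in CDC and the clone.

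**Figure D3:**
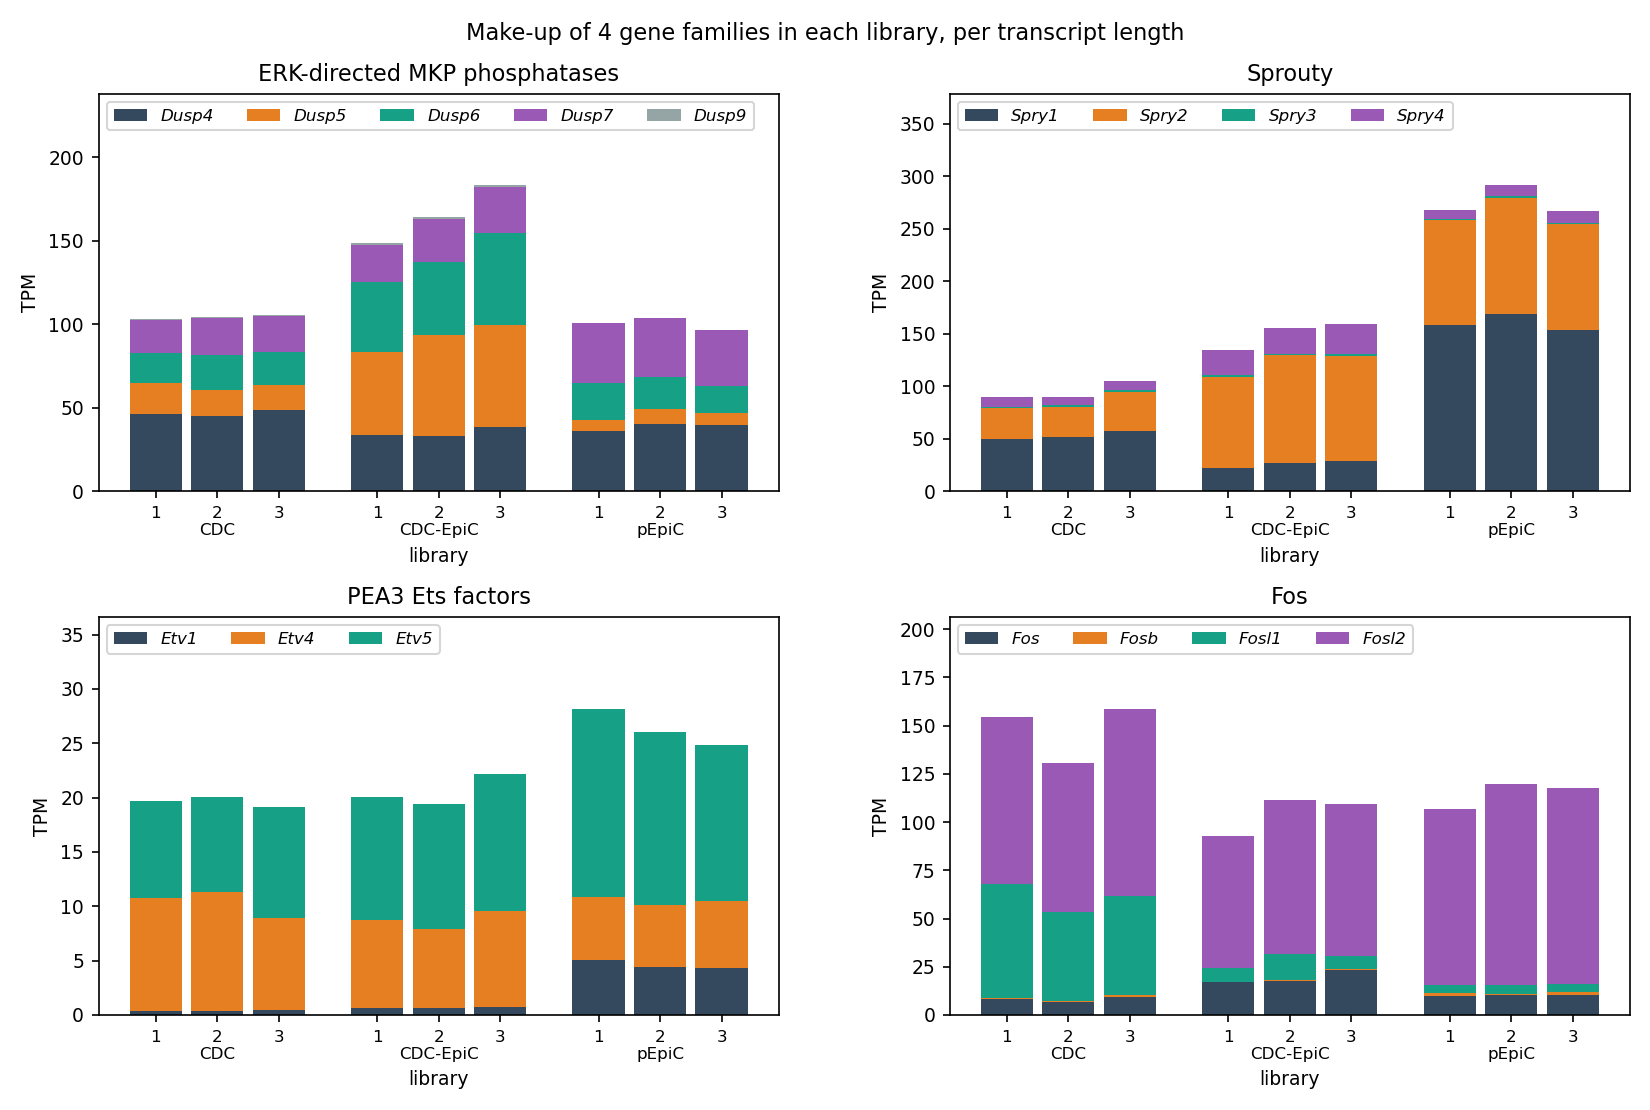
TPM (y axes, linear from 0) of each gene of 4 families, stacked, in the 9 libraries numbered within each kind. Dusp5 and Dusp6 fill most of the phosphatase bars in CDC-EpiC, Spry2 exceeds Spry1 there, Etv1 is visible in pEpiC, and Fosl1 is a large part of the Fos bars in CDC.

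Phlda1 (NCBI Gene 21664, chromosome 10 from 111506286 to 111508645, plus strand) encodes a pleckstrin homology-like protein that can be induced by growth factors. It had 155, 158 and 162 CPM in CDC, 66.0, 115 and 89.0 CPM in CDC-EpiC and 43.9, 43.9 and 43.1 CPM in pEpiC. The order was CDC, CDC-EpiC, pEpiC with no overlap, and the clone libraries were the most scattered. In edgeR it fell by 1.90 ± 0.06 in pEpiC vs CDC (adjusted p = 1.58e-09) and by 0.82 ± 0.14 in CDC-EpiC vs CDC (adjusted p = 8.54e-05) on the log2 scale, and rose by 1.04 ± 0.16 in CDC-EpiC vs pEpiC (adjusted p = 0.000151). All 3 held in every alternative. Its relative Phlda3 also fell by 1.45 ± 0.10 in CDC-EpiC vs CDC (adjusted p = 3.4e-09) and by 1.37 ± 0.10 in pEpiC vs CDC (adjusted p = 6.87e-07). The lincRNA gene Gm28592, on the opposite strand, shares 1088 bases with Phlda1 and was not analysed here.

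The spread between libraries of a kind was itself uneven. The coefficient of variation of CPM exceeded the median of the 10691 genes compared in 9 of the 10 genes in CDC-EpiC, in 6 in CDC and in 7 in pEpiC. In CDC-EpiC it was 43.1% for Fosl1, 27.3% for Phlda1 and 21.9% for Egr1, against a median of 6.02% over all genes. The same 3 genes had 13.4%, 2.37% and 8.46% in CDC and 6.21%, 1.05% and 4.62% in pEpiC, with medians of 7.24% and 4.52%. Fosl1 and Phlda1 were highest in CDC-EpiC library 2 and Egr1 in library 3, so the 3 genes did not share a high library. With 3 libraries a kind, no test of this spread was made. The medians pool genes of all levels. The part of read sampling, which is larger at low counts such as those of Dusp5 in pEpiC, was not tested.

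Compared over all 9 libraries on a log2(CPM + 1) scale centred on each gene's mean, Dusp6 and Spry4 were the closest pair among the genes that peaked in the clone: Spry4 ranked 145 of 10690 genes by Euclidean distance from Dusp6. For Fosl1 the nearest of the 10 was Phlda1, at rank 172, and for Etv5 it was Dusp4, at rank 6117, far down the list. Outside the set, the 3 genes nearest to Fosl1 were Has2, the hyaluronan synthase, with 30.5, 4.54 and 2.06 CPM in CDC, CDC-EpiC and pEpiC, Selenoh and Cda. The 3 nearest to Dusp6 were Nod1, Tmem63a and Ppp1r26, those nearest to Etv5 were Bsdc1, Tmem59 and Hira, and those nearest to Egr1 were Dnajc24, D630045J12Rik and Plekhg5. These are likenesses of level over 3 kinds of cell, with no test.

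Other feedback regulators formed a list of 15 genes, of which 14 passed the filter. The list is not confined to inhibitors of ERK, as it holds the phosphatase Dusp10 and the Ets factor Etv1. Of all genes tested, 34.2% passed higher and 34.6% lower in CDC-EpiC vs CDC. The shares were 39.8% and 38.5% in pEpiC vs CDC, and 40.3% and 41.5% in CDC-EpiC vs pEpiC. These shares belong beside the counts of this list and of those below. In CDC-EpiC vs CDC 4 passed higher, 4 lower and 6 did not pass, with a median log2 change of 0.19, against 0.0027 for all genes. Past 2-fold, Spry1 and Errfi1, an inhibitor of the EGF receptor, were lower, at -1.1 and -1.04. In pEpiC vs CDC 9 passed higher and 5 lower, with a median of 0.53. Il17rd, a membrane inhibitor of FGF signalling, rose from 5.38 to 19.2 CPM (log2 change 1.79 ± 0.14, edgeR, adjusted p = 1.16e-06), the stress-responsive phosphatase Dusp1 from 28.8 to 67.1 CPM and Spry1 from 69.7 to 155 CPM. Dusp10, which acts on JNK and p38, fell from 20.9 to 3.37 CPM. In CDC-EpiC vs pEpiC 4 passed higher and 9 lower, with a median of -0.48, against 0.97 for the 10 genes and -0.02 for all genes.

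Of 24 other immediate early genes 23 were tested. In CDC-EpiC vs CDC 9 passed higher and 10 lower. Atf3, Btg2 and Fos were higher past 2-fold, Atf3 at 29.2 against 9.50 CPM and Btg2 at 185 against 63.4 CPM, while Junb was at 135 against 210 CPM (log2 change -0.65, adjusted p = 2.11e-05 in edgeR). The clone libraries of Atf3 ranged widely, from 18.7 to 44.9 CPM. In pEpiC vs CDC 5 passed higher and 10 lower in counts, but 12 higher and 6 lower in TPM, and 3 and 9 with the length offset. Ier3, Junb, Myc and Maff were lower past 2-fold: they fell by 2.10, 1.63, 1.35 and 1.13 on the log2 scale, and each stayed lower in TPM. In CDC-EpiC vs pEpiC 12 passed higher and 5 lower, and 8 and 8 in TPM. Ier3, at 101 against 28.5 CPM, Atf3, Btg2 and Fos were higher past 2-fold, and Klf4, at 67.1 against 146 CPM, was lower.

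Of 7 other transcripts that depend on MEK in many cells, 5 passed lower in pEpiC vs CDC and 1 higher. The shares of all genes were 38.5% and 39.8%, and the median log2 change of the 7 was -1.44. Tnfrsf12a, Plaur, Epha2 and Ccnd1, the cyclin of early cell cycle entry, fell by 1.74, 1.60, 1.55 and 1.44 on the log2 scale, and Epha4 was 1.92 higher. In CDC-EpiC vs CDC 3 were higher and 4 lower. The cytokine Lif was at 72.5 against 28.5 CPM and Epha2 at 174 against 110.2 CPM, whereas Hmga2 was at 4.58 against 52.0 CPM and Plaur at 21.8 against 58.1 CPM. Over the clone libraries Lif ranged from 52.2 to 98.0 CPM. In CDC-EpiC vs pEpiC 4 were higher and 2 lower, with Epha2 and Lif at log2 changes of 2.15 and 1.47 and Hmga2 at -2.14. The median of the 7 was 0.66 there, and -0.01 with the length offset.

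The 23 genes of the ERK cascade itself, from adaptors to kinases, had small changes between the clone and CDC. In CDC-EpiC vs CDC 5 passed higher, 7 lower and 11 did not pass, with a median size of the log2 change of 0.21, against 0.99 for the 10 genes and 0.44 for all genes. Hras and Rps6ka2 were lower, at 57.9 against 129.6 CPM and 16 against 37.6 CPM. Mapk3, which encodes an ERK protein itself, did not pass in edgeR, at 0.07 ± 0.08 on the log2 scale (adjusted p = 0.456). In pEpiC vs CDC 11 passed higher and 6 lower, but 17 and 2 in TPM, and 7 and 10 with the length offset. Mapk3 was at 195 against 422 CPM and Hras at 41.3 against 129.6 CPM, and Rps6ka3 was higher at 123 against 46.4 CPM. In CDC-EpiC vs pEpiC 7 passed higher and 14 lower (5 and 16 in TPM, 6 and 13 with the length offset), with Mapk3 higher by 1.19 ± 0.05 on the log2 scale (adjusted p = 8.55e-09) and Rps6ka3 and Braf lower.

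Of 23 receptors and ligands upstream of ERK, between 18 and 21 passed the filter on low counts. In CDC-EpiC vs CDC 4 passed higher and 10 lower. The ligand Fgf18 was at 21.3 against 6.26 CPM and the receptor Pdgfra at 60.9 against 29.0 CPM, while Pdgfrb was at 67.7 against 301 CPM. The EGF family ligand Ereg was at 0.953 against 25 CPM and Fgf7 at 8.12 against 107 CPM. In pEpiC vs CDC 8 passed higher and 8 lower (12 and 6 in TPM, 8 and 11 with the length offset): Fgf10, at 19.0 against 0.259 CPM, Pdgfra, at 352 against 29.0 CPM, Pdgfrb and Fgfr1, at 390.3 against 153 CPM, were higher past 2-fold, and Tgfa, Met and Hbegf were lower, at 3.02 against 19.8, 25.5 against 74.9 and 6.16 against 17.8 CPM. In CDC-EpiC vs pEpiC 7 passed higher, Tgfa, Met, Hbegf and Fgf18 past 2-fold, and 11 lower, led by Fgf10, Ereg, Pdgfrb and Fgf7. The split was 10 higher and 10 lower with the length offset, and 5 and 14 in TPM. These lists were not tested as sets, and their counts stand beside shares of 68.8%, 78.3% and 81.9% of all genes called in CDC-EpiC vs CDC, pEpiC vs CDC and CDC-EpiC vs pEpiC.

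**Figure D4:**
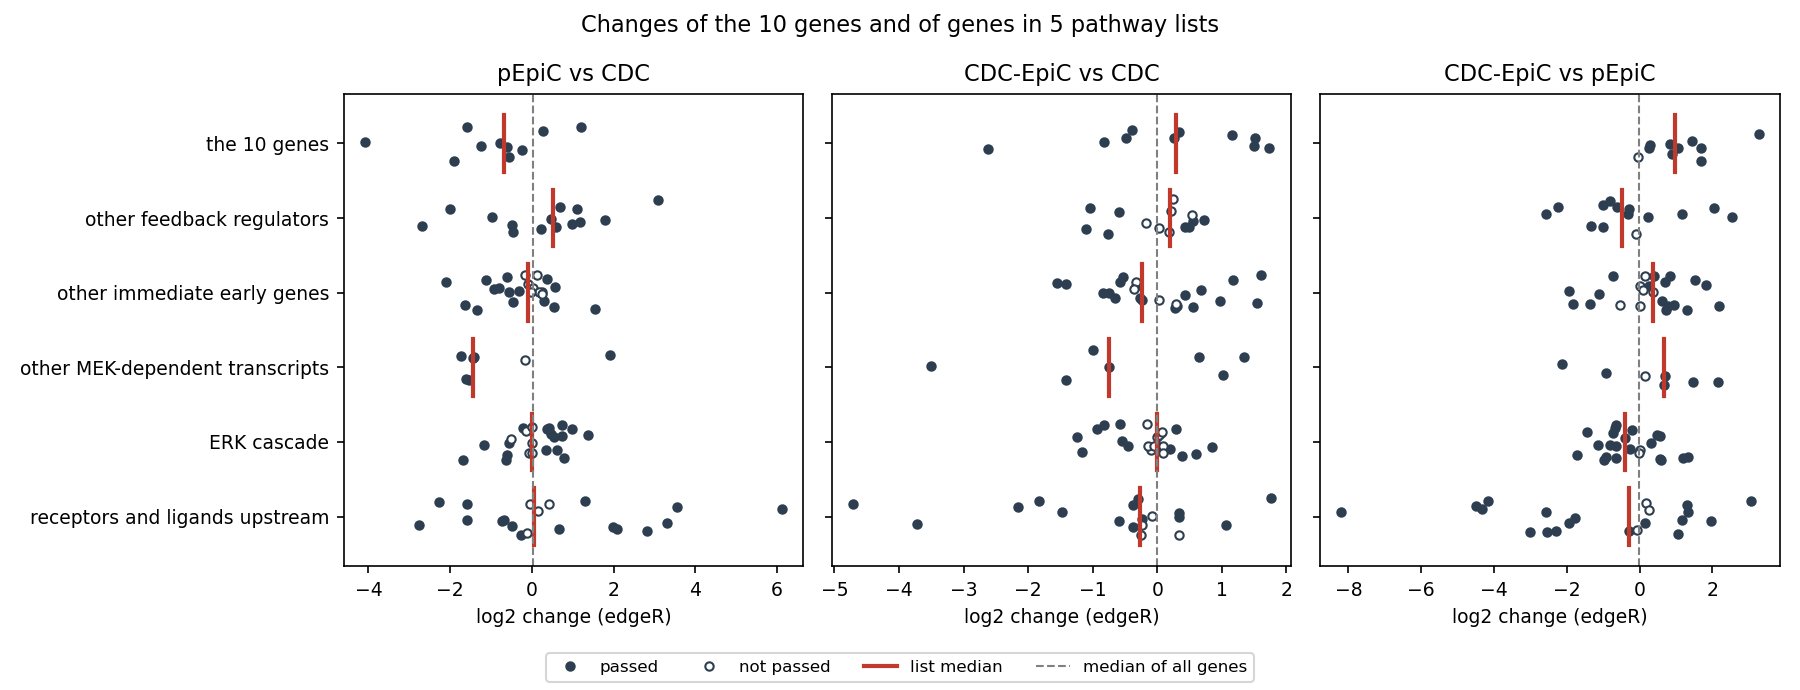
Log2 change in edgeR (x axes) of the 10 genes and of the genes of 5 pathway lists in the 3 comparisons, with genes that passed (filled) or did not pass (open), the list median (red) and the median of all genes (dashed). The median of the 10 genes lies at -0.69, 0.30 and 0.97 from left to right, and that of the other feedback regulators at 0.53, 0.19 and -0.48.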

How the data were processed

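RNA was sequenced on a BGISEQ-500 as paired reads of 100 bases after oligo(dT) selection. The authors deposited RSEM expected counts per gene, which estimate how many reads belong to each gene and need not be whole (30.3% of values were not, at a tolerance of 0.001). The authors also deposited FPKM and TPM values, scaled for depth and transcript length. The submitters' processing notes list mm10, HISAT2 2.0.4, Bowtie2 2.2.5, RSEM 1.2.12 and DESeq2 1.4.5 without roles. The annotation and the use of strand are not given in the sources used here. The 9 columns of averages were not used.

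Expected counts were rounded, filtered with filterByExpr (at least 10 counts, 15 in total), TMM-normalised and tested per pair of kinds by the quasi-likelihood test of edgeR 4.0.16 (R 4.3.3) with Benjamini-Hochberg adjustment over all genes and a threshold of 0.05. GEO lists 1 sample per kind and the 3 library columns whose names hold that kind were taken as its replicates. TPM and FPKM were tested as log2(value + 1) by limma 3.58.1, which understates changes of low genes. DESeq2 1.42.0, RLE normalisation, library size alone, no filter, a stricter filter (every library at 10 counts or more), 1 fit to all 9 libraries, a pseudocount of 0.1, a length offset, a replicate block and leaving out each library were the other alternatives. Libraries held 22008833 to 22756045 counts, and the precision given is the spread between libraries, which includes counting error.

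The 10 genes and all lists were chosen with earlier results of these data known. All 10 genes are named, as are relatives with their family shares. Genes of a pathway list are named where they passed, differed 2-fold or more and reached 10 CPM in the higher kind, up to 4 per direction and comparison, and a gene so named may appear in another comparison. Some genes of the lists are not reported here by name. The 3 nearest genes of Dusp6, Etv5, Egr1 and Fosl1 are named from those with a mean of at least 5 CPM. Tables and plots used Python 3.11.15, pandas 2.3.3, NumPy 2.4.6 and matplotlib 3.10.9.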

Additional observations from a re-analysis of the deposited data

How the results depend on the processing

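The number of the 10 genes past the threshold was 7 to 10 in pEpiC vs CDC, 8 to 10 in CDC-EpiC vs CDC and 8 to 9 in CDC-EpiC vs pEpiC over 17 alternatives each. Of 170 log2 changes per comparison, 156, 161 and 161 kept their direction and their side of the threshold. A total of 12, 9 and 1 kept their direction but fell below the threshold, and 2 rose above it in CDC-EpiC vs pEpiC. The other 2, 0 and 6 turned in direction, and those of Spry4, Dusp4 and Spry2 lost their call as well. The direction turned for Spry4 in pEpiC vs CDC, at 0.23 in log2(TPM + 1) and 0.25 in log2(TPM + 0.1). The first value differed by -0.19 from the median of all genes. In CDC-EpiC vs pEpiC the direction turned for Dusp4, at -0.13 and -0.14, and for Spry2, at -0.11 and -0.11, on the same 2 scales. There Etv5 turned to 0.15 with the length offset, and ranged from -0.11 to 0.032 when each library was left out, the highest without pEpiC replicate 1. The cause was not tested. Etv5 passed the threshold in TPM, at -0.39 and -0.42, the first a difference of -0.07 from the median of all genes. Without CDC-EpiC library 2 the log2 change of Fosl1 was -3.03 in CDC-EpiC vs CDC and 1.03 in CDC-EpiC vs pEpiC. Under alternatives chosen after seeing the data, the number of genes of a pathway list that passed in either direction stayed within 1.5 times in 255 of 255 cases, but the split into higher and lower moved more: in pEpiC vs CDC the other immediate early genes went from 5 higher and 10 lower to 12 and 6 in TPM, and the ERK cascade from 11 and 6 to 17 and 2 in TPM and 7 and 10 with the length offset. Of 30 family shares 25 moved by more than 1 SD when counts replaced TPM. With library numbers as a replicate block 10, 10 and 9 genes passed, as without it. Deviations of same-numbered libraries correlated at -0.10 to 0.17, so the numbers were not taken as pairs. Genes at a few CPM, such as Fosl1 and Dusp5 in pEpiC, rest on the fewest counts.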
